A study of Homo sapiens with 3 samples.

Results

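The 46 genes described here encode the proteins that copy nuclear DNA and supply its building blocks. They were taken by name from the authors' gene table, and all 46 were found among its 30923 genes. The table comes from RNA sequencing of QBC-939, a human cell line labelled as cholangiocarcinoma, a cancer of the bile ducts. There were 3 libraries of total RNA, 1 for each group: cells overexpressing miR-182-5p, cells overexpressing miR-183-5p, and cells given a control labelled NC. Cells of every group carried the wild-type genotype label, and the treatments read oe-miR-182-5p, oe-miR-183-5p and oe-NC. The titles of both microRNA libraries end in mim. The labels do not spell out NC or mim, and they give no dose and no time between treatment and harvest. Mature microRNA levels were not analysed here, so the overexpression itself was not checked.

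DNA replication starts where the origin recognition complex (ORC) marks the DNA and where CDC6 and CDT1 load the ring-shaped MCM helicase around it. CDC45 and the GINS complex switch the helicase on, polymerases alpha, delta and epsilon copy the opened strands, and PCNA clamps the polymerases to their template. Most of these genes are transcribed as cells enter S phase, under E2F transcription factors, and tumour cells that divide quickly carry abundant transcripts of them.

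The 3 libraries held 61709874 counts for miR-182-5p, 67427313 counts for miR-183-5p and 64516706 counts for NC. Mitochondrially encoded genes took 16.7% of counts in the miR-182-5p library, 16.1% with miR-183-5p and 13.5% with NC. The 7 markers of bile duct epithelium summed to 5306, 5757 and 6423 CPM (counts scaled to the library total) with miR-182-5p, with miR-183-5p and with NC. KRT8 and KRT18 gave most of this sum, at 2772 and 1623 CPM in the miR-182-5p library. KRT7 was low, at 1.29, 1.46 and 1.03 FPKM (fragments scaled to transcript length and library total). Fibroblast markers summed to 20.5, 12.5 and 11.2 CPM in the same order of libraries, and COL1A1 alone of the 4 in the table reached a mean of 1 FPKM. Endothelial markers summed to 2.22, 1.68 and 1.24 CPM, and none of the 2 in the table reached that level. Immune markers summed to 1518, 1453 and 1601 CPM, of which LYZ gave 1514 CPM in the miR-182-5p library, while PTPRC, the defining leukocyte marker, had 9, 0 and 0 counts.

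Levels below are CPM unless FPKM is named, "with" a microRNA or NC means in the library of that group, and a difference is the ratio of CPM between 2 libraries. Each ratio is followed by its exact 95% interval, which covers counting error only. With 1 library in each group there is no replicate check and no test between conditions, so differences between cultures cannot be told apart from the effect of a microRNA. A gene is called higher or lower where its CPM ratio reached 1.2-fold, a rule of size applied to the 12675 genes with a mean of at least 1 FPKM. All 46 replication genes passed that filter. Both microRNA libraries are set against the same NC library, so their ratios are not independent. In bulk RNA, fewer cells in S phase and less RNA per cell cannot be told apart.

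The 46 genes together took a smaller share of counts in the miR-182-5p library than in the others. They summed to 224894 counts in the miR-182-5p library, 278485 with miR-183-5p and 283218 with NC. These sums are 0.364% of all counts in the miR-182-5p library (exact 95% interval 0.363 to 0.366), 0.413% with miR-183-5p (0.411 to 0.415) and 0.439% with NC (0.437 to 0.441). The share in the miR-182-5p library was 0.830 times that in NC, and the share in the miR-183-5p library was 0.941 times that in NC. Over nuclear genes only, where the mitochondrial counts do not enter, the same ratios were 0.863 for miR-182-5p and 0.970 for miR-183-5p.

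Per length, the replication genes covered a wide range in these cells. Their median was 9.70 FPKM with miR-182-5p, 11.4 FPKM with miR-183-5p and 12.9 FPKM with NC. PCNA, the sliding clamp, was the most abundant, at 113, 135 and 157 FPKM. GINS4, a subunit of the helicase activator, was the least abundant, at 1.47, 1.82 and 1.69 FPKM. Among the 6 subunits of the MCM ring, which assemble in equal number, the FPKM in the NC library ran from 89.2 for MCM7 through 60.8 for MCM3, 41.9 for MCM2, 31.1 for MCM4 and 15.3 for MCM6 to 10.8 for MCM5. The highest and lowest of these 6 differed 9.36-fold with miR-182-5p, 8.89-fold with miR-183-5p and 8.30-fold with NC. The length behind each deposited FPKM was a median of 1.203 times the length of the gene's merged exons in GENCODE 29. Per kilobase of each gene's longest coding transcript, the NC library gave 26.6 for MCM5 and 20.4 for MCM6, so the order of these subunits depends on the length used.

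**Figure D1:**
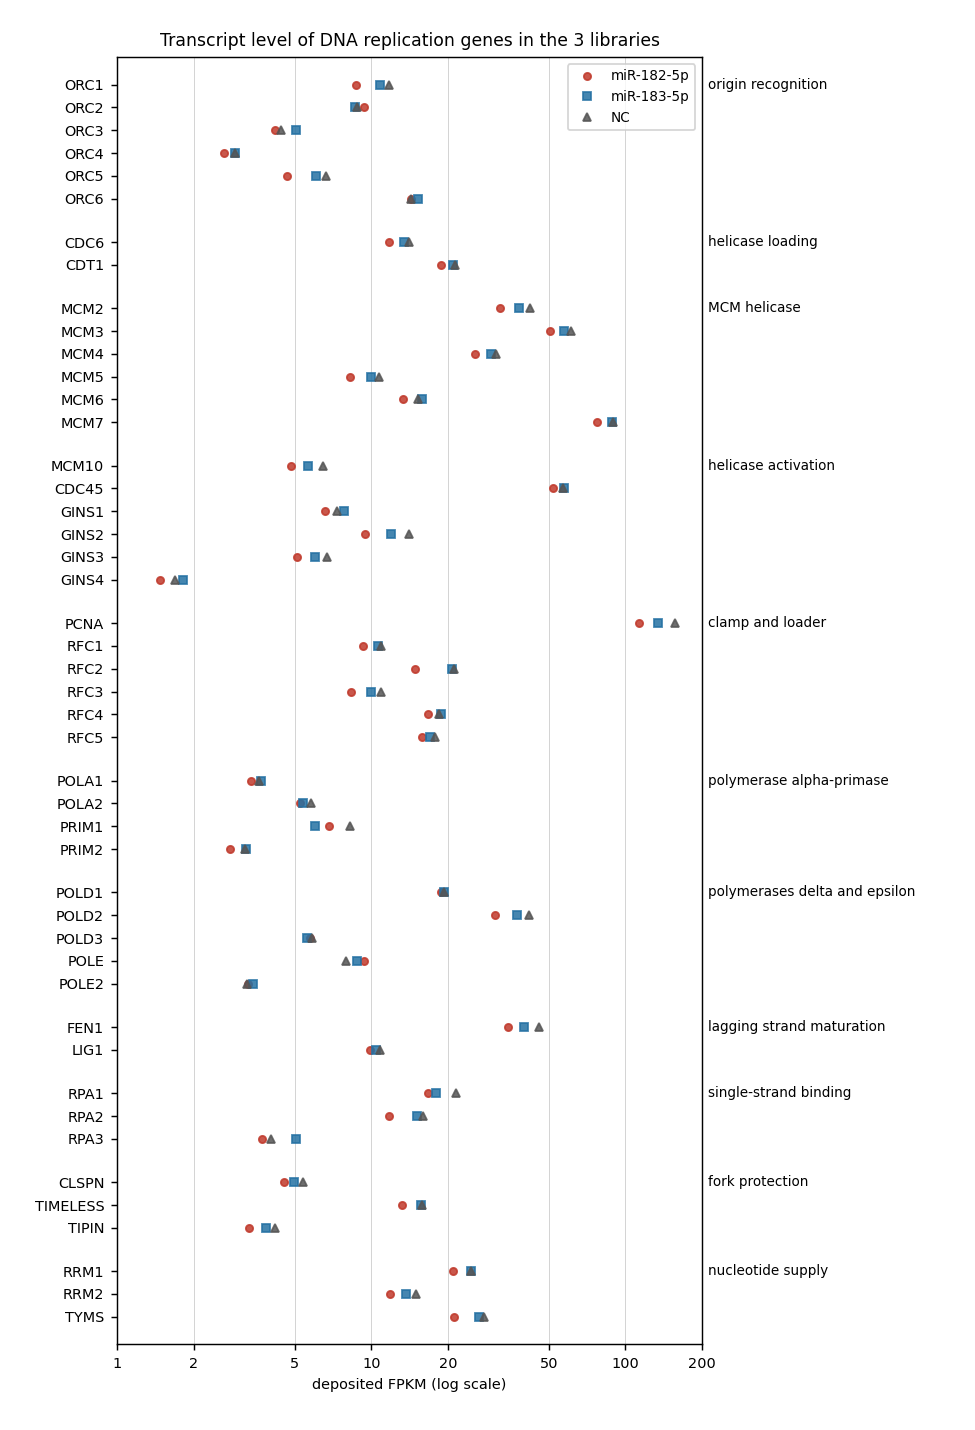
Deposited FPKM (log axis) of the 46 DNA replication genes, 1 row per gene grouped by role, with 1 point for each of the 3 libraries (miR-182-5p, miR-183-5p, NC; no replicates, so no error bars). Levels span from 1.47 FPKM for GINS4 with miR-182-5p to 157 FPKM for PCNA with NC, and the miR-182-5p point is the lowest of the 3 for most genes.

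Against NC, the replication genes were mostly lower with miR-182-5p. Of the 46 genes, 23 were lower past 1.2-fold, against 2601 (20.5%) of the 12675 genes tested. None of the 46 was higher past 1.2-fold, where 2803 (22.1%) of all genes tested were. In all, 44 of the 46 had a ratio below 1, against 52.5% of all genes. Their median log2 difference was -0.26, a ratio of 0.833, and the median of all genes was -0.02. Library totals bear on these counts. With mitochondrial genes left out of the totals (nuclear totals), 17 of the 46 genes were lower and 1 higher, beside 15.4% lower and 26.4% higher of all genes. With edgeR's TMM scaling 30 were lower and 0 higher, beside 27.0% and 18.5%. These scalings multiply all genes of a library by 1 factor. The median of the 46 minus the median of all genes therefore stayed at -0.24 on the log2 scale by construction. It was -0.18 among genes with a mean of at least 5 FPKM and -0.14 among those with at least 10 FPKM. Of the 23 genes called lower, 17 were called under all 7 other scalings and pseudocounts, and CDC6, CLSPN, MCM3, MCM4, PRIM1 and TIMELESS were not under at least 1. Most differences were small: the ratios ran from 0.662 to 1.16. Counting error was smaller than most of them, since 40 intervals lay below 1, 2 lay above 1 and 4 included 1. For 17 of the 23 genes called lower the whole interval lay beyond 1.2-fold. Counts of intervals, here and in the comparisons below, are given for the 46 genes only. They describe counting precision and do not set these genes apart from other genes. Just inside the threshold were CDC6 at 0.827 and CLSPN at 0.829, and just outside it RFC1 at 0.836 and RRM1 at 0.838.

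**Figure D2:**
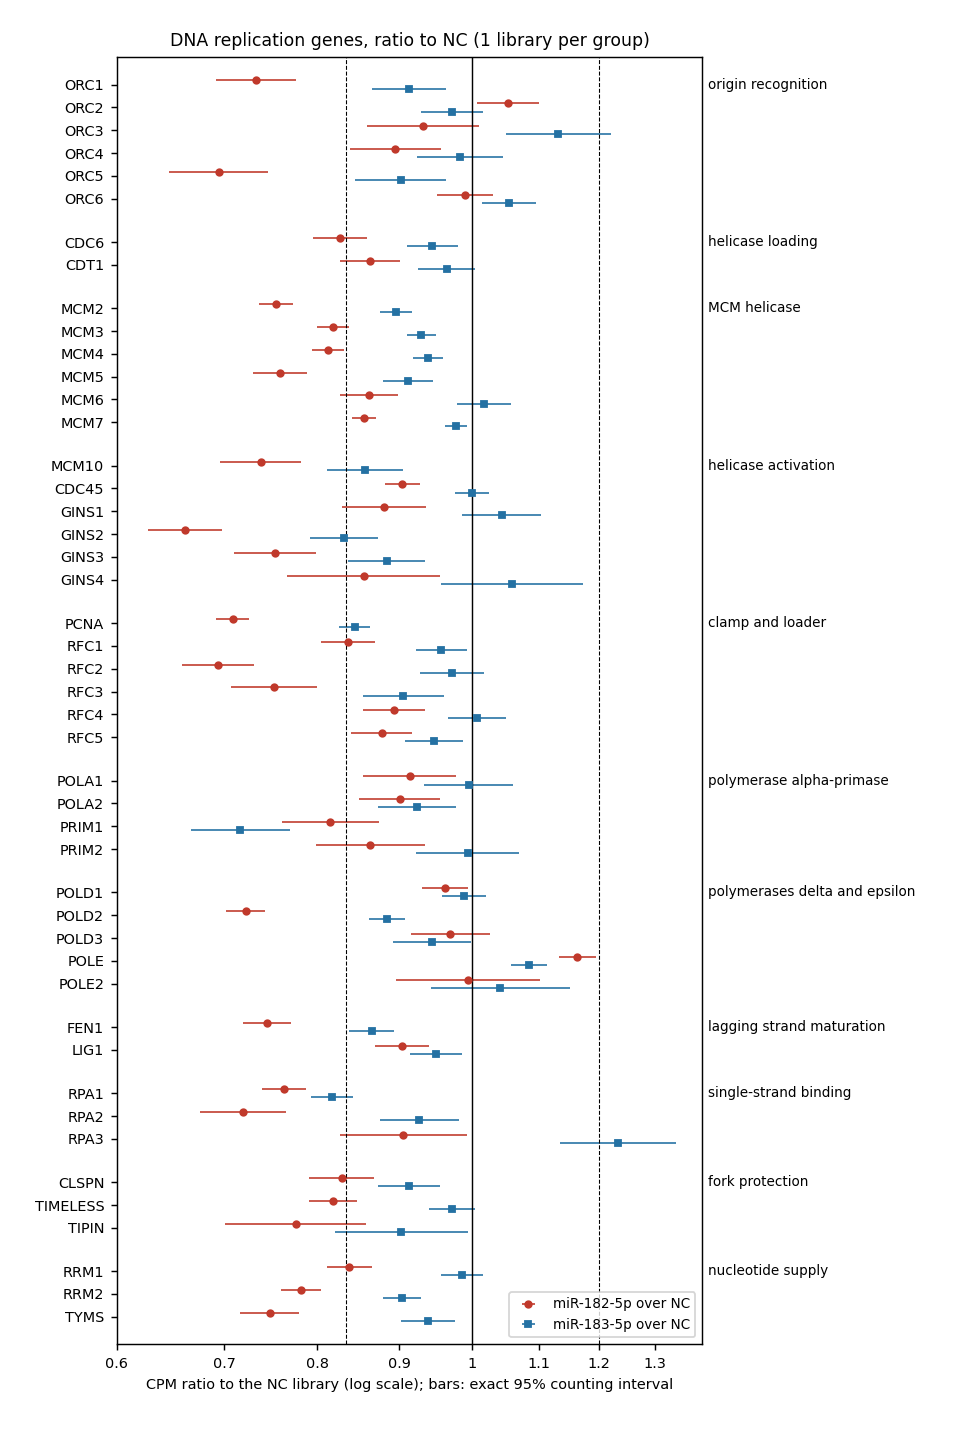
CPM ratio (log axis) of each of the 46 replication genes with miR-182-5p and in the miR-183-5p library over the NC library, with exact 95% intervals for counting error only and lines at 1 and at 1.2-fold either way. In the miR-182-5p library 23 genes lie at or beyond the lower line, and in the miR-183-5p library GINS2, PRIM1 and RPA1 do, while RPA3 lies beyond the upper line in the miR-183-5p library.

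The miR-183-5p library lay closer to NC. Of the 46 genes, 3 (6.52%) were lower past 1.2-fold, against 1354 (10.7%) of all genes tested, so the share was not above the background. RPA3 was the 1 member higher past 1.2-fold, where 10.5% of all genes were. Ratios below 1 were found for 37 of the 46, against 57.2% of all genes. The median log2 difference was -0.08, a ratio of 0.945, beside -0.03 for all genes. With mitochondrial genes left out of the totals, 1 of the 46 was lower and 1 higher, beside 7.67% and 13.1% of all genes, and with FPKM rescaled to TPM 6 were lower and 0 higher, beside 17.2% and 7.91%. There were 27 intervals below 1, 4 above 1 and 15 that included 1. For 40 of the 46 genes the ratio to NC was nearer 1 with miR-183-5p than in the miR-182-5p library. This count is not given for all genes, which also lay farther from NC with miR-182-5p. Of them, 20.5% were lower and 22.1% higher past 1.2-fold with miR-182-5p, beside 10.7% and 10.5% with miR-183-5p.

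Set directly against each other, the miR-182-5p library was lower than the miR-183-5p library for most replication genes. Of the 46, 12 (26.1%) were lower with miR-182-5p past 1.2-fold, against 9.07% of all genes tested. None was higher, where 16.2% of all genes were. Ratios below 1 were found for 42 of the 46, against 47.0% of all genes. The median log2 difference was -0.21, a ratio of 0.866, beside 0.02 for all genes. With TMM scaling 26 of the 46 were lower and 0 higher, beside 16.0% and 11.5% of all genes. With nuclear totals 10 were lower, beside 8.30% of all genes, and on log2 of FPKM + 1 there were 8, beside 6.13%. There were 39 intervals below 1, 3 above 1 and 4 that included 1. The order miR-182-5p, then miR-183-5p, then NC, from lowest to highest, was found for 34 of the 46 genes, against 30.7% of all genes tested.

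**Figure D3:**
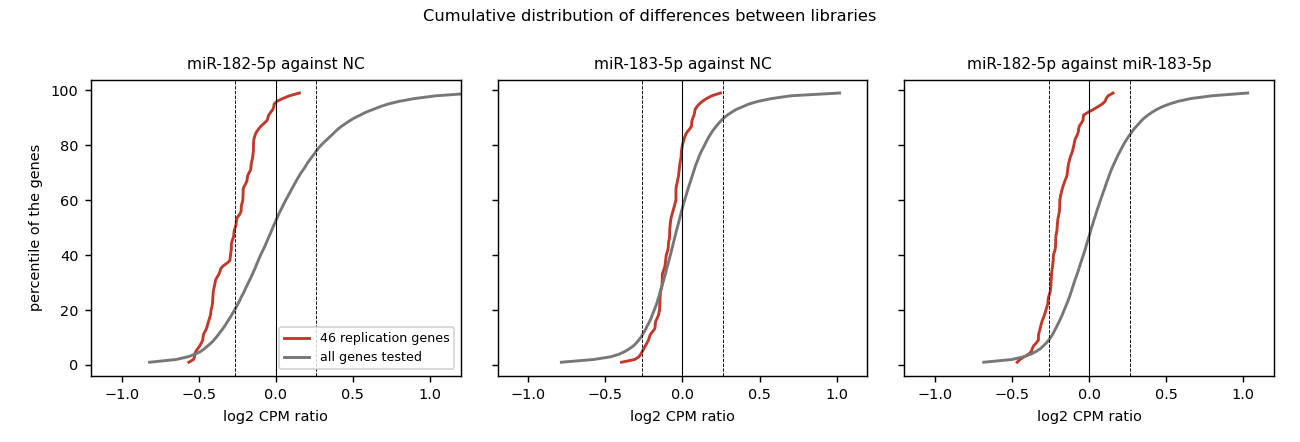
Distribution of log2 CPM ratios of the 46 replication genes beside that of all 12675 genes tested, for miR-182-5p over NC, miR-183-5p over NC and miR-182-5p over miR-183-5p. The medians of the replication genes are -0.26, -0.08 and -0.21, beside -0.02, -0.03 and 0.02 for all genes.

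The 6 subunits of the origin recognition complex, which binds DNA where replication will start, did not share 1 pattern. ORC5 (ENSG00000164815, chr7:104126341-104208047 on the minus strand) had 20.6 CPM with miR-182-5p, 26.8 CPM with miR-183-5p and 29.7 CPM with NC. Its ratio to NC was 0.694 (0.646 to 0.746) with miR-182-5p and 0.902 (0.845 to 0.962) with miR-183-5p, and it was 0.7698 (0.716 to 0.827) for miR-182-5p over miR-183-5p. ORC1, the large subunit, had 32.2 CPM with miR-182-5p, 40.1 CPM with miR-183-5p and 43.96 CPM with NC, a ratio of 0.733 (0.691 to 0.776) for miR-182-5p over NC. ORC5 and ORC1 were thus lower past 1.2-fold with miR-182-5p, and the other 4 subunits were not. ORC2 had 64.9 CPM with miR-182-5p, 59.9 CPM with miR-183-5p and 61.7 CPM with NC, with ratios of 1.05 (1.01 to 1.1001) for miR-182-5p over NC, 0.971 (0.929 to 1.01) for miR-183-5p over NC and 1.08 (1.04 to 1.13) for miR-182-5p over miR-183-5p. It was highest in the miR-182-5p library, as was POLE and no other of the 46 genes. ORC6 had 73.5 CPM with miR-182-5p, 78.3 CPM with miR-183-5p and 74.3 CPM with NC, and its ratio of 0.989 (0.9499 to 1.03) for miR-182-5p over NC had an interval that included 1. ORC3 had 18.3 CPM with miR-182-5p, 22.2 CPM with miR-183-5p and 19.6 CPM with NC, with ratios of 0.932 (0.859 to 1.01) for miR-182-5p over NC and 1.13 (1.05 to 1.22) for miR-183-5p over NC, the second highest in the miR-183-5p comparison. ORC4 had a ratio of 0.895 (0.839 to 0.955) for miR-182-5p over NC. The median ratio of the 6 subunits to NC was 0.913 with miR-182-5p and 0.977 with miR-183-5p.

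CDC6 and CDT1 load the MCM ring at origins. CDC6 had 74.2 CPM with miR-182-5p, 84.7 CPM with miR-183-5p and 89.7 CPM with NC, a ratio of 0.827 (0.795 to 0.8599) for miR-182-5p over NC. CDT1 had 61.4 CPM with miR-182-5p, 68.6 CPM with miR-183-5p and 71.1 CPM with NC, a ratio of 0.863 (0.826 to 0.901), which did not reach 1.2-fold. Against NC, the miR-183-5p library gave 0.944 (0.9099 to 0.979) for CDC6 and 0.964 (0.925 to 1.004) for CDT1.

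All 6 genes of the MCM2-7 helicase, which unwinds the parental strands, had a ratio below 1 with miR-182-5p, and 4 of them passed 1.2-fold. MCM2 had 179 CPM with miR-182-5p, 213 CPM with miR-183-5p and 238 CPM with NC, a ratio of 0.754 (0.736 to 0.773) for miR-182-5p over NC. MCM5 had 71.3 CPM with miR-182-5p, 85.6 CPM with miR-183-5p and 93.9 CPM with NC, a ratio of 0.759 (0.7297 to 0.789). These 2 had the lowest ratios of the ring for miR-182-5p over NC. MCM4 had 212 CPM with miR-182-5p, 244 CPM with miR-183-5p and 260.5 CPM with NC, a ratio of 0.813 (0.794 to 0.831) for miR-182-5p over NC. MCM3 had 218 CPM with miR-182-5p, 248 CPM with miR-183-5p and 266 CPM with NC, a ratio of 0.819 (0.8003 to 0.837). The other 2 subunits stayed short of the threshold. MCM7 had 402 CPM with miR-182-5p, 459 CPM with miR-183-5p and 470.2 CPM with NC, a ratio of 0.856 (0.842 to 0.8703). MCM6 had 65.6 CPM with miR-182-5p, 77.4 CPM with miR-183-5p and 76.1 CPM with NC, a ratio of 0.862 (0.827 to 0.899). In the miR-183-5p library the 6 ratios to NC ran from 0.896 for MCM2 to 1.02 for MCM6, and MCM6, at 1.02 (0.978 to 1.06), was the 1 subunit whose interval included 1. The order of the subunits by deposited FPKM was the same in all 3 libraries. MCM7 also carries the hairpins of MIR25, MIR93 and MIR106B in an intron, and these rows held at most 55 counts in any library, against at least 24833 for MCM7.

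The helicase is switched on by CDC45, the 4 GINS subunits and MCM10. GINS2 (ENSG00000131153, chr16:85676198-85688954 on the minus strand) had 36.2 CPM with miR-182-5p, 45.5 CPM with miR-183-5p and 54.7 CPM with NC. Its ratio of 0.662 (0.628 to 0.698) for miR-182-5p over NC was the lowest of all 46 genes, and it was also lower past 1.2-fold with miR-183-5p, at 0.832 (0.792 to 0.873). For miR-182-5p over miR-183-5p it was 0.796 (0.753 to 0.841). GINS2 was 1 of 3 genes lower past 1.2-fold against NC in both microRNA libraries, with PRIM1 and RPA1. Of all genes tested, 20.5% were lower with miR-182-5p and 10.7% with miR-183-5p, and the share lower in both is not given here. Its call with miR-183-5p ended under several other scalings, with a ratio to NC of 0.838 with TMM and 0.857 with nuclear totals. The call of PRIM1 with miR-183-5p was kept under each scaling tried, at 0.739 with nuclear totals. Its call with miR-182-5p was not kept under all of them, and neither was that of RPA1 with miR-183-5p. None of the 3 genes thus kept both calls. Scaling does not change how reads were divided between PRIM1 and the genes that overlap it on the same strand. MCM10, which joins the helicase as it is activated, had 31.4 CPM with miR-182-5p, 36.5 CPM with miR-183-5p and 42.5 CPM with NC, with ratios of 0.738 (0.696 to 0.782) for miR-182-5p over NC and 0.857 (0.812 to 0.906) for miR-183-5p over NC. GINS3 had 30.9 CPM with miR-182-5p, 36.3 CPM with miR-183-5p and 41.01 CPM with NC, a ratio of 0.753 (0.7097 to 0.799) for miR-182-5p over NC. The other subunits of the same complex were less far from NC: the ratios for miR-182-5p over NC were 0.881 (0.829 to 0.935) for GINS1 and 0.855 (0.766 to 0.955) for GINS4. GINS4 had 9.54 CPM with miR-182-5p, 11.8 CPM with miR-183-5p and 11.2 CPM with NC, and its ratio of 1.06 (0.956 to 1.17) for miR-183-5p over NC had an interval that included 1. CDC45 had 184 CPM with miR-182-5p, 203 CPM with miR-183-5p and 203 CPM with NC, with ratios of 0.904 (0.882 to 0.927) for miR-182-5p and 0.999 (0.976 to 1.02) for miR-183-5p over NC. GINS2 lies opposite GSE1, whose row held 14226, 14389 and 12753 counts with miR-182-5p, with miR-183-5p and with NC, and whether the counting used strand is not given in the sources used here.

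PCNA is the ring that holds polymerases on DNA, and the RFC complex opens that ring to load it. PCNA (ENSG00000132646, chr20:5114953-5126626 on the minus strand) had 188 CPM with miR-182-5p, 224 CPM with miR-183-5p and 265 CPM with NC, with ratios of 0.709 (0.692 to 0.726) for miR-182-5p over NC and 0.844 (0.826 to 0.863) for miR-183-5p over NC. It was therefore among the 6 lowest ratios in both comparisons, past 1.2-fold with miR-182-5p and short of it in the miR-183-5p library. RFC2 (ENSG00000049541, chr7:74231499-74254407 on the minus strand) had 39.04 CPM with miR-182-5p, 54.7 CPM with miR-183-5p and 56.3 CPM with NC. Its ratio to NC was 0.694 (0.659 to 0.7305) with miR-182-5p and 0.971 (0.927 to 1.02) with miR-183-5p, so the 2 microRNA libraries lay apart by 0.714 (0.678 to 0.752), the lowest ratio of miR-182-5p over miR-183-5p among the 46 genes. RFC3 had 28.1 CPM with miR-182-5p, 33.9 CPM with miR-183-5p and 37.4 CPM with NC, with a ratio of 0.752 (0.707 to 0.8001) for miR-182-5p over NC and 0.906 (0.855 to 0.959) for miR-183-5p over NC. The remaining loader subunits were not called: for miR-182-5p over NC, RFC1 had 0.836 (0.804 to 0.8696), RFC4 0.893 (0.854 to 0.934) and RFC5 0.878 (0.8403 to 0.917). RFC4 lies opposite EIF4A2, an abundant gene with 40247, 42747 and 38371 counts with miR-182-5p, with miR-183-5p and with NC.

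Polymerase alpha and primase lay the short primers that start each new strand. PRIM1 (ENSG00000198056, chr12:56731296-56752374 on the minus strand), the catalytic primase subunit, had 23.1 CPM with miR-182-5p, 20.3 CPM with miR-183-5p and 28.3 CPM with NC. Its ratio to NC was 0.815 (0.7603 to 0.874) with miR-182-5p and 0.716 (0.667 to 0.769) with miR-183-5p, the lowest of the 46 genes there, and it was 1.14 (1.06 to 1.23) for miR-182-5p over miR-183-5p, the highest. PRIM1 and POLD3 were the 2 genes with the order miR-183-5p, miR-182-5p, NC from lowest to highest. PRIM1 held 1425, 1368 and 1827 counts with miR-182-5p, with miR-183-5p and with NC. It shares its strand and span with NACA, whose row held 21351, 25850 and 27857 counts in the same order of libraries. AC117378 overlaps PRIM1 on the same strand too, and its row held 0, 234 and 0 counts, all with miR-183-5p. How reads were divided among these genes is unknown. The part of AC117378 in the low PRIM1 ratio with miR-183-5p was not tested. PRIM2, the partner of PRIM1, had ratios of 0.864 (0.798 to 0.934) for miR-182-5p over NC and 0.994 (0.923 to 1.07) for miR-183-5p over NC. POLA1 and POLA2, the catalytic and accessory subunits of polymerase alpha, had ratios of 0.914 (0.855 to 0.977) and 0.901 (0.84997 to 0.955) for miR-182-5p over NC, and none of these 3 was called in either comparison with NC.

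The polymerases that extend both strands held POLE, with the highest ratio of the 46 genes for miR-182-5p over NC, and several genes near NC. POLE (ENSG00000177084, chr12:132623753-132687347 on the minus strand), the catalytic subunit of polymerase epsilon, which copies the leading strand, had 187 CPM with miR-182-5p, 174 CPM with miR-183-5p and 161 CPM with NC. The ratios were 1.16 (1.13 to 1.19) for miR-182-5p over NC, 1.08 (1.06 to 1.11) for miR-183-5p over NC and 1.07 (1.04 to 1.1002) for miR-182-5p over miR-183-5p. All 3 intervals lay above 1 and none of the ratios reached 1.2-fold, although with nuclear totals POLE reached 1.21 for miR-182-5p over NC. POLE2, its accessory subunit, had 11.5 CPM with miR-182-5p, 12.1 CPM with miR-183-5p and 11.6 CPM with NC, with a ratio of 0.994 (0.896 to 1.103) for miR-182-5p over NC. Polymerase delta, which copies the lagging strand, was split. POLD2, its second subunit, had 134 CPM with miR-182-5p, 164 CPM with miR-183-5p and 186 CPM with NC, with ratios of 0.722 (0.702 to 0.742) for miR-182-5p over NC and 0.884 (0.862 to 0.908) for miR-183-5p over NC. POLD1, the catalytic subunit, had 110.3 CPM with miR-182-5p, 113 CPM with miR-183-5p and 115 CPM with NC, with a ratio of 0.961 (0.9296 to 0.993) for miR-182-5p over NC. POLD3 had 37.6 CPM with miR-182-5p, 36.6 CPM with miR-183-5p and 38.8 CPM with NC, and its ratios of 0.969 (0.915 to 1.03) for miR-182-5p over NC and 1.03 (0.9697 to 1.09) for miR-182-5p over miR-183-5p had intervals that included 1. Only POLD2 of these 5 genes was past 1.2-fold with miR-182-5p, and the median ratio of the 5 to NC was 0.969 there. In the file, POLD2 has a pseudogene, POLD2P1, with 0, 4 and 0 counts with miR-182-5p, with miR-183-5p and with NC.

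FEN1 trims the primer ends of lagging strand fragments and LIG1 joins them. FEN1 had 89.8 CPM with miR-182-5p, 104 CPM with miR-183-5p and 121 CPM with NC, with ratios of 0.744 (0.719 to 0.771) for miR-182-5p over NC and 0.865 (0.838 to 0.894) for miR-183-5p over NC, lower past 1.2-fold with miR-182-5p and not in the other. LIG1 had 77.3 CPM with miR-182-5p, 81.2 CPM with miR-183-5p and 85.6 CPM with NC, a ratio of 0.904 (0.869 to 0.9397) for miR-182-5p over NC.

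RPA coats single-stranded DNA as a complex of 3 subunits, and the ratios of their transcripts differed. RPA1, the large subunit, had 109 CPM with miR-182-5p, 117 CPM with miR-183-5p and 143 CPM with NC, with ratios of 0.763 (0.739 to 0.787) for miR-182-5p over NC and 0.817 (0.793 to 0.842) for miR-183-5p over NC, both past 1.2-fold. With nuclear totals the miR-183-5p ratio of RPA1 was 0.842, and on log2 of FPKM + 1 it was 0.837, short of 1.2-fold. RPA2 had 27.5 CPM with miR-182-5p, 35.4 CPM with miR-183-5p and 38.2 CPM with NC. Its ratio was 0.719 (0.676 to 0.766) for miR-182-5p over NC and 0.927 (0.875 to 0.981) for miR-183-5p over NC, so RPA2 was called in the miR-182-5p library only. RPA3 (ENSG00000106399, chr7:7636518-7718607 on the minus strand), the smallest subunit, had 14.3 CPM with miR-182-5p, 19.4 CPM with miR-183-5p and 15.7 CPM with NC. Its ratio was 0.906 (0.826 to 0.992) for miR-182-5p over NC and 1.23 (1.13 to 1.34) for miR-183-5p over NC, the 1 member called higher in any comparison. With FPKM rescaled to TPM the ratio for miR-183-5p over NC was 1.18, short of 1.2-fold. For miR-182-5p over miR-183-5p it was 0.735 (0.674 to 0.801). RPA3 lies opposite UMAD1, whose row held 79, 300 and 364 counts with miR-182-5p, with miR-183-5p and with NC.

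CLSPN, TIMELESS and TIPIN protect forks and pass on checkpoint signals, and all 3 were lower past 1.2-fold with miR-182-5p. TIPIN, the least abundant of them, had 10.7 CPM with miR-182-5p, 12.5 CPM with miR-183-5p and 13.8 CPM with NC, a ratio of 0.776 (0.7003 to 0.859) for miR-182-5p over NC. TIMELESS, which binds TIPIN, had 91.5 CPM with miR-182-5p, 108 CPM with miR-183-5p and 112 CPM with NC, a ratio of 0.819 (0.7904 to 0.848). CLSPN had 51.5 CPM with miR-182-5p, 56.7 CPM with miR-183-5p and 62.1 CPM with NC, a ratio of 0.829 (0.791 to 0.869), and so the NC library was the highest of the 3 for each of these genes. In the miR-183-5p library none of the 3 was called, with ratios to NC of 0.903 for TIPIN, 0.971 for TIMELESS and 0.913 for CLSPN.

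RRM1 and RRM2 form ribonucleotide reductase, which makes deoxyribonucleotides, and TYMS, thymidylate synthase, makes the thymidine building block. TYMS had 60.7 CPM with miR-182-5p, 76.2 CPM with miR-183-5p and 81.2 CPM with NC. Its ratios were 0.747 (0.716 to 0.7795) for miR-182-5p over NC, 0.939 (0.903 to 0.976) for miR-183-5p over NC and 0.796 (0.763 to 0.831) for miR-182-5p over miR-183-5p. TYMS lies opposite ENOSF1, whose row held 6714, 6662 and 5704 counts, higher in the miR-182-5p library than in NC where TYMS was lower. RRM2, the subunit whose level limits the enzyme in S phase, had 129 CPM with miR-182-5p, 149 CPM with miR-183-5p and 165 CPM with NC, a ratio of 0.782 (0.759 to 0.805) for miR-182-5p over NC. RRM1 had 105 CPM with miR-182-5p, 124 CPM with miR-183-5p and 125 CPM with NC, a ratio of 0.838 (0.811 to 0.866), short of 1.2-fold. For miR-183-5p over NC the ratios were 0.904 for RRM2 and 0.985 for RRM1.

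The overall level of a gene moved with its ratio. Among genes with a mean of at least 1 and below 5 FPKM, 14.5% of all genes and 2 of 9 replication genes were lower past 1.2-fold with miR-182-5p against NC. From 5 to below 10 FPKM these were 18.6% of all genes and 6 of 11 replication genes. From 10 to below 20 FPKM they were 25.7% and 8 of 15, and at 20 FPKM or more 39.9% and 7 of 11. The median log2 difference of the replication genes was -0.16, -0.29, -0.27 and -0.30 in these 4 bands, beside 0.09, -0.05, -0.11 and -0.20 for all genes. In the highest band the replication genes thus lay nearer to all genes than in the other 3 bands. None of the 46 was higher in any band, while 33.1%, 14.7%, 10.7% and 8.07% of all genes were, from the lowest band to the highest. For miR-183-5p over NC, 0 of 9, 1 of 11, 2 of 15 and 0 of 11 replication genes were lower past 1.2-fold, beside 12.8%, 9.50%, 8.31% and 7.95% of all genes. Genes were also banded by implied length, which is CPM over deposited FPKM with NC and so depends on the total behind the FPKM. Below 2 kb, 1 of the 1 replication gene was lower past 1.2-fold with miR-182-5p. From 2 to below 4 kb 9 of the 15 were, and at 4 kb or more 13 of the 30. All genes gave 31.6%, 32.3% and 14.5% in these bands. The part of level and length in the difference was not tested.

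**Figure D4:**
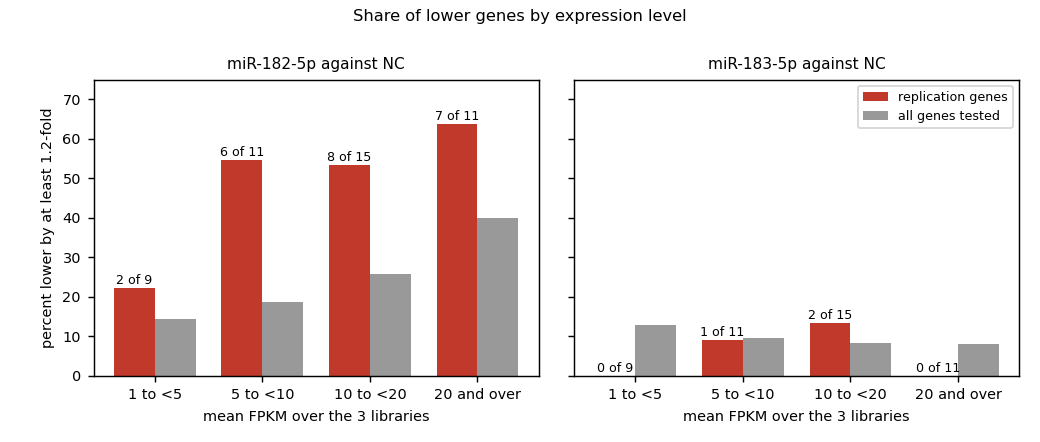
Percentage of genes lower past 1.2-fold in each microRNA library against NC, in 4 bands of mean FPKM, for the 46 replication genes and for all 12675 genes tested. In the miR-182-5p library the replication genes lie above all genes in every band, at 2 of 9, 6 of 11, 8 of 15 and 7 of 11 beside 14.5%, 18.6%, 25.7% and 39.9%.

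A second list held 45 other genes of replication, such as chromatin assembly factors, clamp loader variants and origin firing factors, of which 43 passed the filter. In the miR-182-5p library 14 of the 43 (32.6%) were lower past 1.2-fold against NC and 3 were higher, beside 20.5% and 22.1% of all genes, with a median log2 difference of -0.19, between those of the 46 genes and of all genes. The lowest were ASF1A, a histone chaperone, with 10.9, 14.8 and 16.9 CPM with miR-182-5p, with miR-183-5p and with NC and a ratio to NC of 0.643, CHTF8, part of a clamp loader variant, at 0.654, POLE3, a small subunit of polymerase epsilon, at 0.673, and SSRP1, part of the histone chaperone FACT, at 0.725. The higher genes were TONSL at 1.29, PIF1, a helicase, at 1.22 and DBF4B, an activator of CDC7 kinase, at 1.21. In the miR-183-5p library 6 of the 43 (14.0%) were lower and 3 (6.98%) higher, beside 10.7% and 10.5% of all genes, with a median log2 difference of -0.10. The lower ones numbered 1 with nuclear totals or with deposited FPKM, and 11 with TPM, beside 7.67%, 9.04% and 17.2% of all genes. LRWD1, which binds ORC, was the lowest at 0.767, followed by ASF1B at 0.827, DONSON at 0.829 and WDHD1 at 0.829, and the higher genes were ATAD5 at 1.26, PIF1 at 1.21 and TONSL at 1.21. For miR-182-5p over miR-183-5p, 7 were lower and 0 higher, beside 9.07% and 16.2% of all genes, with a median of -0.09.

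Most genes of other cell cycle steps also had a ratio below 1 with miR-182-5p against NC, though most did not pass 1.2-fold. Ratios below 1 were found for 20 of 28 G1/S regulators and 28 of 32 mitosis genes, beside 44 of the 46 replication genes and 52.5% of all genes. The difference between these lists and the replication genes was not tested. Of 28 regulators of the G1/S transition, 7 (25.0%) were lower and 1 higher with miR-182-5p against NC, beside 20.5% and 22.1% of all genes, with a median log2 difference of -0.13. CDK4 was at 0.696, CDC25A at 0.722 and CCNE1 at 0.766, and RBL2, a relative of the retinoblastoma protein, was higher at 1.23. Of 32 mitosis genes, 9 (28.1%) were lower and 0 higher, with a median of -0.18, led by MAD2L1 at 0.714, CDC20 at 0.743 and BIRC5 at 0.765. In the miR-183-5p library 2 of the 28 regulators were lower (CCNE1 at 0.725 and CDKN2D at 0.734), and of the mitosis genes 0 were lower and CENPE was higher at 1.21, beside 10.7% lower and 10.5% higher of all genes. For miR-182-5p over miR-183-5p, ratios below 1 were found for 16 of the 28 regulators and 30 of the 32 mitosis genes, beside 42 of the 46 replication genes and 47.0% of all genes. Past 1.2-fold 1 regulator and 4 mitosis genes were lower and 0 higher, beside 9.07% and 16.2% of all genes.

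The sequences of the 2 microRNAs are given here because their seeds decide which sites can be searched for in the replication genes. They come from RefSeq on GRCh38.p14, on the minus strand, with the seed (bases 2 to 8) in capitals. miR-182-5p lies at chr7:129770447-129770470 and miR-183-5p at chr7:129774967-129774988.
miR-182-5p: uUUGGCAAugguagaacucacacu
miR-183-5p: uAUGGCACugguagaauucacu
They share 18 of their 22 aligned positions and 5 of the 7 seed bases, so they have different seeds. The sites searched for were the 7 bases complementary to each seed.

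Few replication genes held a match to either seed. In the longest 3' UTR of each gene in GENCODE 29, 5 of the 46 genes (10.9%) held the miR-182-5p site, against 15.2% of 10601 genes tested. The median 3' UTR was 872 bases long among the 46 genes and 1326 among all genes. The 5 were ORC1, ORC5, MCM5, POLA2 and GINS4, and the median ratio for miR-182-5p over NC was 0.759 with a site and 0.836 without, beside 0.981 and 0.965 over all genes. Of these 5, ORC1 at 0.733, ORC5 at 0.694 and MCM5 at 0.759 were lower past 1.2-fold with miR-182-5p, and POLA2 at 0.901 and GINS4 at 0.855 were not. In MCM5 the site lies 646 bases beyond the end of the gene in the deposited table, and in the other genes it lies within the table's span. The miR-183-5p site was held by 3 of the 46 genes (6.52%), MCM4, GINS4 and ORC2, against 12.2% of all genes, and their median ratio for miR-183-5p over NC was 0.971, beside 0.944 for those without. Their ratios were 0.938 for MCM4, 1.06 for GINS4 and 0.971 for ORC2. A match of letters is not a shown binding site.

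The windows around sites in ORC1, ORC5, MCM5 and POLA2, and that of the miR-183-5p site in ORC2, are printed from GENCODE 29 (GRCh38), as DNA in the direction of the transcript with the site in capitals. They are shown so that the sites can be seen in their surroundings, and the windows of GINS4 and MCM4 are not shown here.
MCM5, chr22:35425135-35425164, plus strand: gaggaaggagtgTTGCCAAgtgcctcggtc
ORC1, chr1:52372937-52372966, minus strand: ggcttcaccatgTTGCCAAgctagtctaca
ORC5, chr7:104126409-104126438, minus strand: ctctgcagtcgcTTGCCAAagcagattttc
POLA2, chr11:65298289-65298318, plus strand: gtggcagctgctTTGCCAAgtcgcgcagta
ORC2, chr2:200910578-200910607, minus strand: cagttattgtctGTGCCATgaccttcatga
Among these windows ORC5 is the 1 in which the miR-182-5p site is followed by an A. ORC2, with the miR-183-5p site, had a ratio of 0.971 (0.929 to 1.01) for miR-183-5p over NC.

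Many promoters of the replication genes hold the letters that E2F factors are known to bind. RefSeq promoters, from 250 bases before to 50 after the start, were matched for 40 of the 46 genes, and MCM4, MCM5, GINS4, RPA2, RPA3 and POLD3 had no entry. The letters TTTCCCGC, TTTCGCGC, TTTGCCGC or TTTGGCGC, on either strand, were found in 19 of the 40 (47.5%), against 5.90% of 8911 genes tested with a promoter. Matches on opposite strands overlap each other in MCM2 and MCM6. The GINS3 promoter in the table lies 97391 bases from the start of GINS3 in the gene table. This distance was 3115 bases for RFC5, 1870 for RRM2, 576 for RFC4, 543 for MCM7 and 303 for RPA1. A CCAAT box (CCAAT, either strand) was found in 24 of 40 (60.0%), against 37.5% of genes. The CHR element (TTTGAA, either strand), a motif of mitosis genes, was found in 1 of 40, RRM1, or 2.5%, against 9.20% of genes.

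Lower genes were found with and without the E2F letters. Of the 19 genes with them, 9 were lower past 1.2-fold with miR-182-5p, with a median ratio of 0.856, against 11 of the 21 genes without, with a median of 0.819. For miR-183-5p over NC the medians were 0.944 with and 0.957 without. Over all genes with a promoter, 21.7% with the letters and 20.7% without were lower past 1.2-fold with miR-182-5p. With a CCAAT box, 13 of 24 replication genes were lower there, against 7 of 16 without. The ratios of genes with any of these letters ran from 0.662 for GINS2 to 1.16 for POLE, the lowest and the highest of all 46 ratios.

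**Figure D5:**
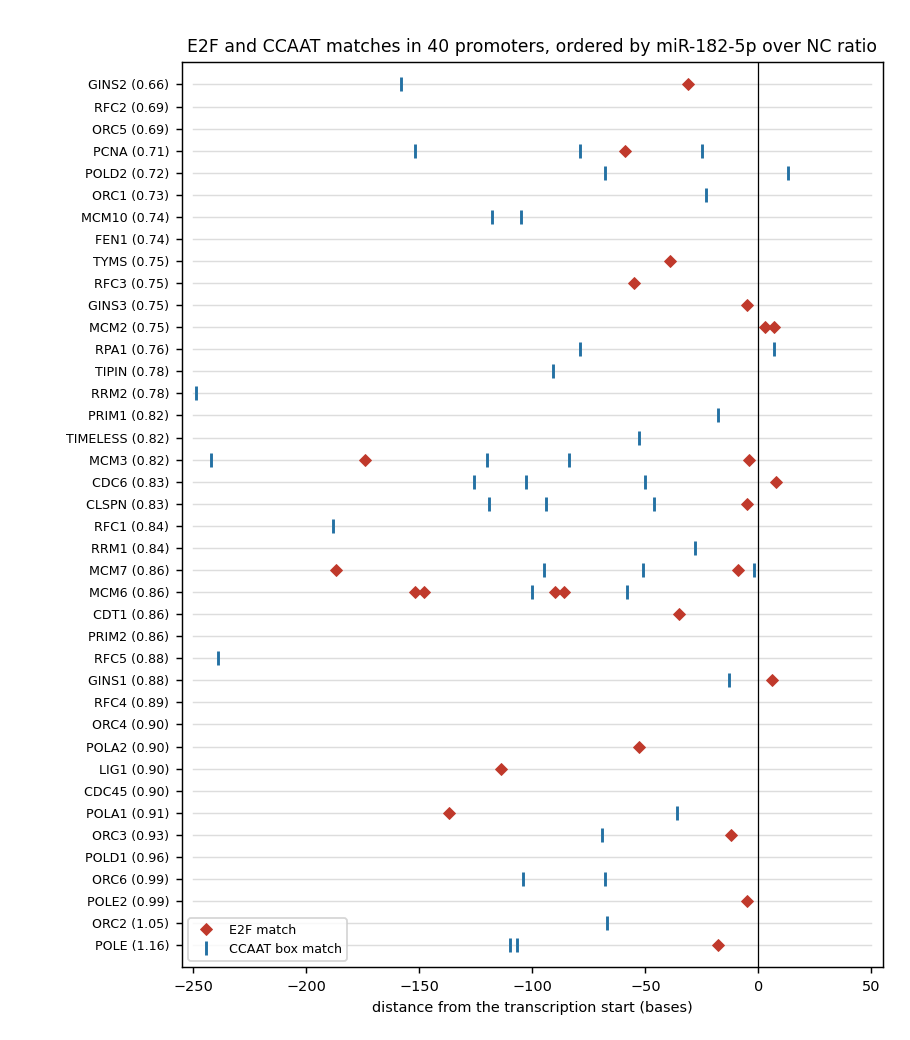
Positions of the E2F letters (diamonds) and CCAAT boxes (bars), on either strand, in the 40 matched promoters, in bases from the transcription start, with genes ordered by their CPM ratio of miR-182-5p over NC. Diamonds appear along the whole order, from GINS2 at 0.662 to POLE at 1.16, in 19 of the 40 rows.

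Promoters of 4 replication genes with the E2F letters are printed for that reason: GINS2 and POLE have the lowest and highest ratio, PCNA is the most abundant gene, and MCM6 has the letters most often. They are RefSeq sequences on GRCh38.p14, all on the minus strand, written in the direction of transcription with the E2F letters, on either strand, in capitals. In each, the last 50 bases follow the start site.
GINS2, chr16:85688905-85689204: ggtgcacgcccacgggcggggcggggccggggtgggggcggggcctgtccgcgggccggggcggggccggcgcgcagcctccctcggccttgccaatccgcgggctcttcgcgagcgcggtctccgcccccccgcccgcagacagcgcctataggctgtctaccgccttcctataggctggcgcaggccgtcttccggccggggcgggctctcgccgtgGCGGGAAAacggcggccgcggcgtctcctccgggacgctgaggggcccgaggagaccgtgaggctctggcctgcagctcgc
PCNA, chr20:5126573-5126872: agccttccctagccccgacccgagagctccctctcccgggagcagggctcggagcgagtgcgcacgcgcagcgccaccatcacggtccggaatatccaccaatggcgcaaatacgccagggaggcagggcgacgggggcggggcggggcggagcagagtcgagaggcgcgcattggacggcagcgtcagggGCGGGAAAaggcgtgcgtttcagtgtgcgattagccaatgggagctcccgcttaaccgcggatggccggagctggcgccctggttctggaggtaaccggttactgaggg
MCM6, chr2:135876394-135876693: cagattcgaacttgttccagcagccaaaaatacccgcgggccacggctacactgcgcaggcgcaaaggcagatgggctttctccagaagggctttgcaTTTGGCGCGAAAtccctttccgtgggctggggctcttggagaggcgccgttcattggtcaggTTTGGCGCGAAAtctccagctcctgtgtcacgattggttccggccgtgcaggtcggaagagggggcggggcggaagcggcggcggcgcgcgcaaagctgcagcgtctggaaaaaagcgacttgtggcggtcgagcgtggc
POLE, chr12:132687293-132687592: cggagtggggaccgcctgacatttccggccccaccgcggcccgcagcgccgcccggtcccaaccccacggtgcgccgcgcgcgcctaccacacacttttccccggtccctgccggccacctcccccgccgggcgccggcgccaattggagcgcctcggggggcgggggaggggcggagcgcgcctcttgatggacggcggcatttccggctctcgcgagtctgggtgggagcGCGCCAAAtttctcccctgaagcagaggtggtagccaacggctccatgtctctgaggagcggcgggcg
Counted from the start site, the match begins at -31 in GINS2, at -59 in PCNA and at -18 in POLE. MCM6 holds the same capital run at both -152 and -90, in each of which a match on the plus strand and 1 on the minus strand overlap. The ratios for miR-182-5p over NC were 0.662 for GINS2, 0.709 for PCNA, 0.862 for MCM6 and 1.16 for POLE. GINS2 and PCNA carry TTTCCCGC, POLE carries TTTGGCGC, and MCM6 carries TTTGGCGC with TTTCGCGC.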

How the data were processed

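Total RNA of 3 QBC-939 libraries was sequenced, 1 library per group, and processed by the authors into a single gene table. Per the submitters' processing notes, cutadapt 1.9 and FastQC were used and the build is GRCm38, which is a mouse assembly, whereas the table's 30923 identifiers are all human Ensembl ones. Coordinates printed for genes are those of the deposited file, and 17859 genes, 13 of the 46 among them, have the same coordinates in GENCODE 29 on GRCh38. Not given in the sources used here are the aligner, the counting program, its use of strand and the annotation. Per the file headers, the table holds whole read counts per gene and FPKM for each library, and these counts and FPKM values were used as deposited. No column of another sample was left unused (0).

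Counts were divided by library totals (61709874 for miR-182-5p, 67427313 for miR-183-5p, 64516706 for NC) to give CPM. Ratios carry exact 95% Clopper-Pearson intervals on the split of a gene's counts between the libraries compared. Their median half-width was 0.063 on the log2 scale, and they cover counting error only. Genes with a mean of at least 1 FPKM over the 3 libraries were tested against the 1.2-fold rule, and the calculation was tested on simulated data. No model was fitted, since 1 library per group allows none, and edgeR 4.0.16 and DESeq2 1.42.0 (R 4.3.3) gave scaling factors only. Other steps used Python 3.11.15, numpy 2.4.6, pandas 2.3.3, scipy 1.17.1 and matplotlib 3.10.9. Values in each library are given for the 6 lowest and 4 highest ratios of each comparison and for genes past 1.2-fold against NC in both microRNA libraries, and other values appear by role. From the other replication genes up to 4 per direction are named, and from the other lists up to 3. The members and lists were chosen with earlier results of these data known, and the bands by level and by length, like the further values by role, were added after values were seen. Alternatives covered scaling, low-value filters, pseudocounts, thresholds and overlapping genes.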

Additional observations from a re-analysis of the deposited data

Results flagged for a closer look

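RPA3, the small subunit of the single-strand binding complex, lay on opposite sides of NC in the microRNA libraries. Its CPM ratio was 0.906 (0.826 to 0.992) for miR-182-5p over NC and 1.23 (1.13 to 1.34) for miR-183-5p over NC, and each exact 95% counting interval left out 1. Both depend on the scaling. Nuclear totals raise every ratio for miR-182-5p over NC by 0.056 on the log2 scale, which takes the upper end of 0.992 past 1. The call with miR-183-5p was not kept under all 7 other scalings and pseudocounts. The difference between the microRNAs was not tested, since each ratio rests on 1 library per group and both use the same NC library. UMAD1, on the opposite strand of the same span, had 79, 300 and 364 counts with miR-182-5p, with miR-183-5p and with NC, and its part in the RPA3 values was not tested.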

How the results depend on the processing

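No paired analysis was possible because each group has 1 library, so replicate numbers only name samples, and no replicate could be left out. Reversal was defined for the median log2 differences only, and none of these reversed. Of all recomputed values, counts of called genes included, 139 kept their size within the limits set and 71 moved. The counts of lower genes depend on the threshold, on the library total and on which genes enter. Of the replication genes, at 1.1-fold 38 were lower and 1 higher for miR-182-5p over NC, and 13 and 2 for miR-183-5p over NC. For miR-182-5p over miR-183-5p these were 33 and 1. Of all genes, 34.9%, 28.0% and 23.3% were lower in these comparisons, and 32.5%, 20.6% and 29.9% higher. At 1.5-fold the lower genes were 1, 0 and 0 in these 3 comparisons and at 2-fold 0, 0 and 0, with 0 higher at either threshold, RPA3 included. With nuclear totals 1 was higher for miR-182-5p over NC and 1 lower for miR-183-5p over NC, beside 26.4% and 7.67% of all genes. For miR-182-5p over miR-183-5p, TMM gave 26 lower and a median log2 difference of -0.28, size factors gave 25 and -0.28, nuclear totals gave 10 lower and log2 of FPKM + 1 gave 8, against 12 as reported. All genes gave 16.0%, 15.8%, 8.30% and 6.13% lower in the same order, against 9.07%. Rescaling to TPM gave medians of -0.33 for miR-182-5p over NC and -0.14 for miR-183-5p over NC, where 6 were lower and 0 higher. On log2 of FPKM + 1, 1 was lower for miR-183-5p over NC, beside 5.67% of all genes. Of the 26 genes with a mean of at least 10 FPKM, a filter added after seeing the data, 15 were lower for miR-182-5p over NC, against 32.2% of 3659 genes. Under the same filter 0 were higher for miR-183-5p over NC, against 2.84%, and 6 were lower for miR-182-5p over miR-183-5p, against 8.94%. With at least 5 FPKM, 0 were higher for miR-183-5p over NC, against 3.66%. Of the 20 genes that overlap no other gene on either strand, 12, 0 and 7 were lower in the 3 comparisons, beside 22.4%, 11.1% and 9.32% of 4848 genes, and 0 were higher for miR-183-5p over NC.

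Of the 43 other replication genes, at 1.1-fold 25, 18 and 15 were lower for miR-182-5p over NC, miR-183-5p over NC and miR-182-5p over miR-183-5p, beside 34.9%, 28.0% and 23.3% of all genes. At this threshold 6 were higher for miR-183-5p over NC and 3 for miR-182-5p over miR-183-5p, beside 20.6% and 29.9% of all genes. At 1.5-fold 2, 0 and 1 were lower and 0 higher for either microRNA over NC, and at 2-fold 0 were lower in any comparison and 0 higher for either microRNA over NC. For miR-183-5p over NC the lower genes numbered 1 with nuclear totals, beside 7.67% of all genes, 3 with size factors (10.1%), 11 with TPM (17.2%), 1 with deposited FPKM (9.04%) and 2 with TMM (9.84%). They numbered 1 with a pseudocount of 1 (5.67%) or 0.1 (8.69%), and 3 of 32 with a mean of at least 5 FPKM (8.74%). The higher ones numbered 1 with TPM (7.91%) and 1 on log2 of FPKM + 1 (6.95%). For miR-182-5p over NC the higher genes numbered 1 with size factors, TPM or TMM, beside 18.4%, 17.9% and 18.5% of all genes. For miR-182-5p over miR-183-5p, 11 were lower with size factors or TMM, beside 15.8% and 16.0% of all genes. Without genes that overlap on the same strand, 9, 3 and 4 of 28 were lower in the 3 comparisons, beside 21.1%, 10.5% and 8.87% of all such genes. Without overlap on either strand 5, 3 and 0 of 11 were, beside 22.4%, 11.1% and 9.32%. There 1 was higher for each microRNA over NC, beside 18.7% and 7.82%. The smaller sets of genes shorten these counts by construction, and otherwise the cause was not tested. At this depth a counting interval spans about 0.063 either way on the log2 scale, and the spread between cultures is unknown.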
